A study of Homo sapiens with 4 samples.

Results

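The transcripts described here are human RNAs annotated as substrates of nonsense-mediated decay (NMD), each set against a protein-coding transcript of its own gene in MDA-MB-231 breast cancer cells. They were taken from a deposited table of transcripts by its molecule type column, as every row of the NMD type whose gene symbol also had a protein-coding row. The partner of each was the coding row of its gene with the highest mean normalized read count. The table held 43596 transcripts of 15113 gene symbols, of which 3031 (6.95%) were of the NMD type. A coding partner was found for 2837 of these, in 2284 genes, and 194 NMD rows had no coding row. Of the 12120 genes with a coding row, 18.8% had at least 1 such pair, and 1807 genes had 1 NMD row, 411 had 2, 58 had 3, 6 had 4 and 2 had 5.

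MDA-MB-231 is an established human triple-negative breast cancer line of mesenchymal character. Cells were given either the solvent DMSO or 10 µM KH-3 for 24 h. KH-3 is a small molecule directed at the RNA-binding protein HuR, and mRNA of 2 libraries per condition was sequenced. The value used throughout is the authors' mean normalized read count of a transcript. Which libraries enter this mean is not stated, and those of a 5 µM group that the methods also name may be among them. The mean gives no separate value for each condition, so the effect of KH-3 on these transcripts could not be examined.

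The table used here gives no value per library. Sequencing depth and the spread between replicates are therefore unknown, no SD can be given, and no difference below was tested against replicate error. The intervals cover the spread over pairs, which are not replicates of a condition. The lowest mean count listed was 7.34, so a low ratio could be seen only beside an abundant partner. Isoforms of a gene share most of their sequence, and each value depends on how the shared reads were divided among them. As for the line itself, the mesenchymal marker VIM had 5 rows, CD44 had 3, EGFR had 2 and CAV1 had 4, and ESR1, PGR and CDH1 had none. EPCAM, an epithelial marker, was listed at no more than 43.0.

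NMD is a surveillance pathway that degrades mRNAs on which ribosomes stop too early. In mammals the main cue is an exon junction complex that stays bound downstream of the stop codon, and the helicase UPF1 with the SMG1 kinase then commits the RNA to decay. Many splicing regulators use the pathway on their own messages, by splicing in a poison exon that carries a stop codon. RNAs annotated as NMD substrates are thus usually expected at low steady-state levels, although the annotation is made from the position of the stop codon and not from a measured half-life.

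The sequences of the splicing regulators and NMD factors show what sets such a transcript apart from its partner. Each line gives the last 30 coding bases of the NMD transcript, 5′ to 3′, with the stop codon in capitals, from the GENCODE release 44 transcripts of hg38. In the first set the stop lay in a cassette exon, an exon that the coding partner skips. The poison exon of SRSF6-002 was chr20:43459153-43459420 (plus strand, 268 bases), that of SRSF3-002 was chr6:36599821-36600276 (plus strand, 456 bases) and that of SRSF9-006 was chr12:120464733-120464822 (minus strand, 90 bases).
SRSF6-002: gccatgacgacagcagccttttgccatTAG
SRSF3-002: accatcatgtctcttctcaccaccctcTGA
SRSF7-002: aggtttcttcgtttgagtcagtcgcctTGA
SRSF9-006: ttccgagttcttgtttcagaaaactatTAG
MAGOHB-002: cctgatagggttggccgacagaataaaTGA
DHX34-002: cattcagatttggctgaccttcttgtcTGA
The stop ended 152 bases into the SRSF6 exon and 34 bases into the SRSF3 exon. In SRSF9-006 it ended 11 bases after the junction, so that only the last 11 printed bases belong to the cassette exon, and in MAGOHB-002 only the last 9 do.

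In a second set the stop lay in a part added to an exon that the partner also has, by use of another splice site. SRSF10-012 used an exon of 165 bases at chr1:23978653-23978817 on the minus strand, and SMG9-004 used 1 of 546 bases at chr19:43739673-43740218, also on the minus strand.
SRSF10-012: ttcagatggctgattagtgaggggtgtTGA
SRSF1-005: gccttcgttgagttcgaggacccgcggTGA
SMG9-004: tttgccccaccctgccacatcctgcatTGA
CASC3-008: aagtgtttttcaacacctaaaggaaggTAG
The remaining pair of sequences comes from a retained intron and from an untranslated part. The stop of SRSF7-003 lay in an exon of 1127 bases at chr2:38748579-38749705 (minus strand) that runs through an intron of the partner. The stop of SRSF1-008 lay downstream of the partner's stop, in a stretch that the partner transcribes but does not translate, so it is not early relative to the partner. That partner, SRSF1-003, is not the canonical transcript of the gene, and the stop was not compared with that of the canonical one.
SRSF7-003: cggcgaagaagaagcaggtatttatttTAA
SRSF1-008: cgtcatagcagatctcgctctcgtacaTAA
All of these sequences end in a stop codon that the partner does not use, and TGA, TAA and TAG each occurred among them. Over the 2712 NMD transcripts whose stop codon could be read, TGA ended 57.8%, TAA 22.1% and TAG 20.1%.

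Most NMD transcripts were listed below their coding partner. The partner was chosen as the coding row with the highest count, which by itself favours the partner, and against the longest coding row in its place the median log2 ratio was -1.15 per kb and 33.6% of NMD transcripts were above, beside -1.84 and 22.3% with the partner as chosen. The median mean normalized read count was 35.8 for the NMD transcripts and 302 for the partners. The NMD transcripts were also shorter, with a median length of 1793 bases against 3065, and 76.8% were shorter than their own partner. Counts were therefore divided by the listed length and are given per kilobase (kb) unless stated otherwise. On this scale the median level was 22.6 for NMD transcripts and 93.4 for partners.

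The median ratio of NMD transcript to partner per kb was 0.279, or -1.84 on the log2 scale (95% interval over pairs -1.95 to -1.74, n = 2837 pairs). The middle of the distribution was wide, with quartiles of 0.0954 and 0.876, and the extremes were 0.000962 and 87.5. A ratio under 0.1 was found in 738 pairs, over 2 in 320 and over 10 in 52. The NMD transcript lay above its partner per kb in 634 pairs (22.3%, exact binomial 95% interval 20.8 to 23.9) and in read counts in 460 (16.2%). In 371 pairs (13.1%) the NMD row was the most abundant row of its gene in counts. The levels of NMD transcript and partner rose together only weakly across pairs, with a Spearman correlation of 0.33 per kb and 0.18 in counts, given as a description because both values come from the same libraries and from shared reads.

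**Figure D1:**
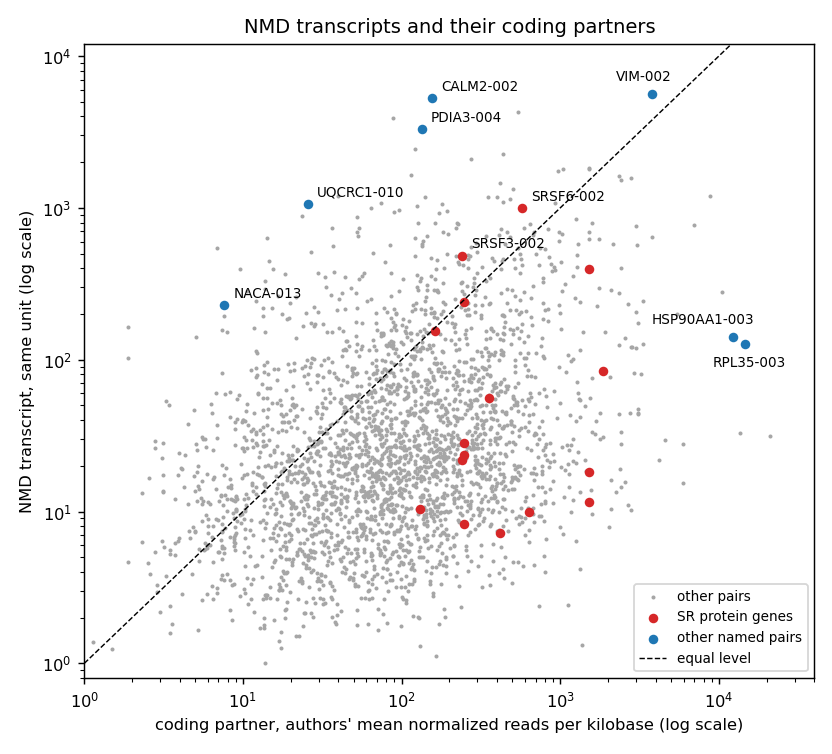
Level of each NMD transcript (vertical axis) against that of its coding partner (horizontal axis), both as the authors' mean normalized reads per kilobase on log scales, with 1 point per pair and no error bars because no values per library were used. The cloud lies mostly below the dashed line of equal level, with 634 of 2837 points above it, and SRSF6-002 and SRSF3-002 are the only SR protein pairs above it.

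Summed over the transcripts of a gene, NMD rows held a median of 13.8% of the reads in NMD and coding rows (95% interval over genes 12.7 to 15.0, n = 2284 genes). The quartiles were 4.61% and 34.9%. NMD rows held most of these reads in 343 genes (15.0%) and under 10% in 949. Pooled over all 2284 genes they held 16.7%.

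SR proteins are serine- and arginine-rich splicing factors, and their genes are the classical carriers of poison exons. Of 13 listed SR genes, 10 had an NMD row with a coding partner, in 16 pairs, beside 18.8% of all genes with a coding row. The median ratio was 0.0927 per kb, against 0.279 over all pairs, and the partners were abundant, with a median count of 1032. Among the 10 SR pairs with a partner at 1000 or more the median ratio was 0.0678, beside 0.0950 for all 526 such pairs. The stop lay in a cassette exon in 6 of the 16 SR pairs, beside 21.6% of all pairs with a structure.

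SRSF6-002 was the SR transcript of the NMD type with the most reads. It held 1671 reads against 2470 for SRSF6-001, the other row of the gene, and so 40.4% of the reads of both. Per kb it stood at 995 against 571, a ratio of 1.74. The order of this pair thus depended on the length, since the NMD transcript was listed with 1680 bases and the coding transcript with 4325.

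SRSF3-002 held 530 reads against 1021 for SRSF3-001, and per kb 484 against 242, a ratio of 2.0. Here too the NMD transcript was lower in counts and higher per kb. A further coding row, SRSF3-007, held nearly as many reads as the partner, 1003, over only 869 bases, and its 1154 per kb lay above the NMD transcript. The other NMD row of the gene, SRSF3-006, had a cassette exon of 98 bases and held 13.0 reads.

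SRSF7 had 4 NMD rows, which together made up 41.8% of the NMD and coding reads of the gene. SRSF7-003, with the retained intron, held 459 reads against 614 for SRSF7-001 and was level with it per kb, at 241 against 247. SRSF7-002, SRSF7-011 and SRSF7-008 held 81.0, 15.3 and 14.1 reads. Most NMD reads of this gene were thus assigned to SRSF7-003, which shares its exon of 1127 bases with SRSF7-011.

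SRSF1, the founding member of the family, had 3 NMD rows, all below SRSF1-003, which held 4728 reads. SRSF1-008 reached 298 reads and a ratio of 0.259 per kb. SRSF1-005 and SRSF1-004 held 26.9 and 19.9 reads. SRSF1-003 is not the canonical transcript of the gene. The canonical one, SRSF1-001, held 184 reads, or 122 per kb. SRSF1-008, at 393 per kb, lay above SRSF1-001 in counts and per kb. SRSF1-005 and SRSF1-004 lay below it in both. SRSF1-004 ended on the same stop codon as its partner, with 1 exon junction 824 bases after it.

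The remaining SR pairs lay below their partners per kb. SRSF8-003 came closest, with 154 per kb against 162 for SRSF8-002. SRSF9-006 stood at 84.6 against 1871 (ratio 0.0452) and SRSF10-012 at 56.3 against 357 (ratio 0.158). SRSF4-007, SRSF2-004 and SRSF11-015 were listed at 13.9, 9.83 and 8.34 reads, close to the lowest count in the table. In read counts no SR transcript of the NMD type was above its partner, beside 16.2% of all pairs.

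**Figure D2:**
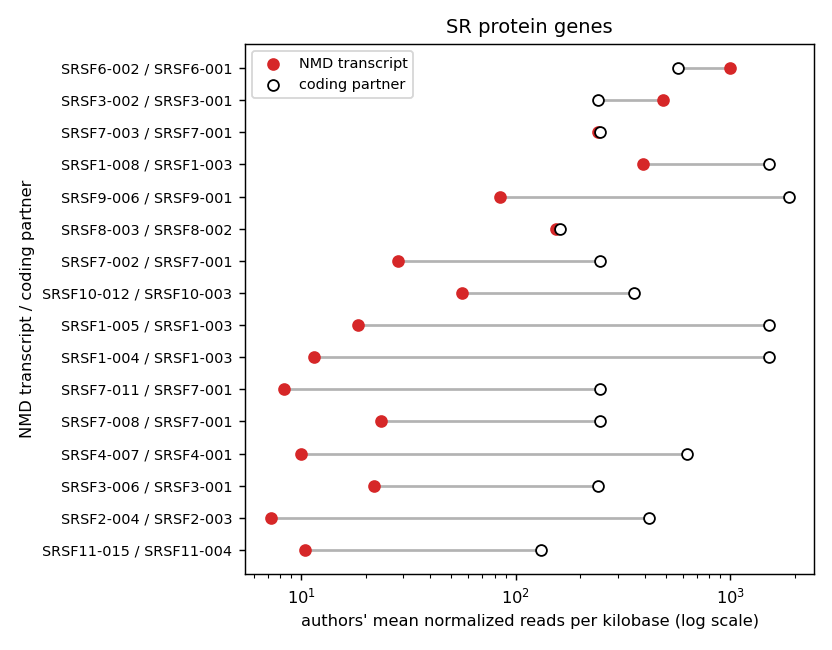
Level per kilobase (log scale) of the 16 NMD transcripts of SR protein genes (red) and of their coding partners (open), with pairs ordered by the read count of the NMD transcript and without error bars, since each point is 1 mean of the authors. SRSF6-002 and SRSF3-002 lie to the right of their partners, SRSF7-003 and SRSF8-003 almost on them, and the other 12 to the left.

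The HNRNP genes code for abundant RNA-binding proteins that often oppose SR proteins in splice site choice. They had 15 pairs in 11 of 28 genes, beside 18.8% of all genes with a coding row. The median ratio of these pairs was 0.147, and 0.0330 for the 3 with a partner at 1000 or more. Among the 12 with an exon structure, 5 ended on the same stop codon as the partner and carried an intron after it, beside 7.08% of all pairs with a structure. HNRNPA2B1-006 was such a transcript and held 206 reads against 5139 for HNRNPA2B1-002. HNRNPA1-006 held 54.5 against 3628, and HNRNPD-005 held 84.8 against 535. Only 1 of the 15 HNRNP pairs had the NMD transcript above its partner per kb, beside 22.3% of all pairs.

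Genes of the core spliceosome had 28 pairs in 21 of 58 genes with a coding row, beside 18.8% of all such genes. Of the 27 pairs with a structure 13 had their stop in a cassette exon, beside 21.6% of all pairs with a structure. The median ratio of the 28 pairs was 0.0764 and 5 lay above the partner per kb, beside 22.3% of all pairs. For the 15 with a partner at 1000 or more the median was 0.117, beside 0.0950 for all such pairs. SNRPD3-005, of an Sm protein in the core of the spliceosomal snRNPs, held 958 reads against 893 for SNRPD3-001, and 1339 against 506 per kb. It kept the stop codon of the partner, with 3 junctions after it. SF3B3-007, of a subunit of the SF3b complex that helps to select the branch point, had a cassette exon of 29 bases and held 411 reads against 3333. Its ratio per kb was 1.90, but the lengths of 630 and 9720 bases differed by far, and in counts the coding row was well above. LUC7L3-019 and RBM25-008 had ratios of 1.27 and 1.11 per kb, and in counts they too were below their partners. SNRPD3-005 was the 1 spliceosomal transcript that was also above its partner in counts, beside 16.2% of all pairs.

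NMD factors are themselves known to be subject to the pathway through feedback. Of 21 listed genes of this group 4 had a pair, beside 18.8% of all genes with a coding row. These 6 pairs had a median ratio of 0.127, and of 0.109 for the 2 with a partner at 1000 or more. SMG9-004, of a regulator of the SMG1 kinase, held 91.1 reads against 194 for SMG9-002 and was level with it per kb, at 84.6 against 81.3. MAGOHB-002, of a subunit of the exon junction complex, held 80.4 against 141, and MAGOHB-005 held 19.3. CASC3, of another subunit of that complex, had CASC3-008 and CASC3-002 at 31.2 and 18.9 reads beside 1216 for CASC3-001. DHX34-002, of a helicase that acts in the pathway, held 19.8 beside 741. No NMD factor had an NMD transcript above its partner in counts, beside 16.2% of all pairs, but the group had only 6 pairs.

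The CLK kinases phosphorylate SR proteins, and all rows in both pairs of this group held few reads. CLK1-006 held 18.7 reads against 9.14 for CLK1-007 and was above it per kb too, at a ratio of 2.49. That partner was close to the lowest count listed, 7.34. CLK4-003 held 14.4 against 65.6 for CLK4-001, a ratio of 0.203 per kb. HuR itself, the gene ELAVL1, had 2 rows, both protein-coding, and so no pair. None of the 8 listed genes that the study names as HuR or its targets had an NMD row with a coding partner, beside 18.8% of all genes with a coding row. So small a group shows nothing particular to these genes.

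Ribosomal proteins varied widely. They had 26 pairs in 21 of 84 genes, beside 18.8% of all genes with a coding row, with a median ratio of 0.0847. Of these pairs 5 were above the partner per kb and 4 of those also in counts, beside 22.3% and 16.2% of all pairs. For the 10 with a partner at 1000 or more the median was 0.00492, beside 0.0950 for all such pairs. RPL35-003 held 88.1 against 6616 for RPL35-001, a ratio of 0.00876 and the lowest among the 1071 pairs with both rows at 50 or more. RPS25-005 was above its partner RPS25-001, at 2176 reads against 454 and a ratio of 7.87 per kb. RPL15-008, at 4191 against 559, is typed as protein-coding and no longer as NMD in release 44. Ribosomal protein genes have many processed pseudogenes, so the assignment of reads to them is uncertain.

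Translation factors and tRNA synthetases had 20 pairs in 14 of 66 genes, beside 18.8% of all genes with a coding row. Their median ratio was 0.357 and 5 were above the partner per kb, beside 22.3% of all pairs. For the 9 with a partner at 1000 or more the median was 0.0315, beside 0.0950 for all such pairs, so the group lay above the median of all pairs as a whole and below it among abundant partners. EIF6-004, of the factor that keeps the large ribosomal subunit from joining too early, held 887 reads against 40.4 for EIF6-005, and its stop was 104 bases before the last junction. EIF3M, of an initiation factor subunit, had 4 NMD rows at 533, 67.0, 34.1 and 14.3 reads beside 1513 for EIF3M-002. EIF3D-010 held 510 beside 3953, and KARS-004, of lysyl-tRNA synthetase, held 297 beside 3825. Among the transcripts of this group with the most reads, EIF6-004 was thus the exception, but only relative to a minor coding row. EIF6-005 was the gene's only listed coding row and lay under 50 reads. The canonical EIF6 transcript had no row in the table, so the level of EIF6-004 relative to it is unknown.

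Cell cycle genes had 13 pairs in 12 of 44 genes, beside 18.8% of all genes with a coding row. Their median ratio was 0.125, and 0.139 for the 6 with a partner at 1000 or more. Of the 13 pairs 2 were above the partner per kb, beside 22.3% of all pairs. MAD2L1-004, of a spindle checkpoint protein, held 642 reads against 360 for MAD2L1-001, and 503 against 65.8 per kb. Its stop codon lay 51 bases before the last junction. MCM4-015 held 270 against 2413, MCM2-002 held 263 against 2176, and CCNB1-004, of cyclin B1, held 237 against 1425. MAD2L1-004 was the 1 cell cycle transcript above its partner in counts, beside 16.2% of all pairs. The stress response genes had 7 pairs in 4 of 20 genes, beside 18.8% of all genes with a coding row. The median ratio of these pairs was 0.452 and their median partner count 117. UPP1 held 4 of these pairs, and UPP1-007 is no longer of the NMD type in release 44. SLC7A11-002, of the cystine transporter, was the 1 pair with a partner at 1000 or more. It held 38.1 reads beside 4748, a ratio of 0.0971 per kb.

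Among the highest ratios with both rows at 50 or more, 9 pairs from UQCRC1-010 at 41.4 to PODXL-003 at 19.1 are given, in which the coding partner held between 50.6 and 498 reads. UQCRC1-010, of a core subunit of respiratory complex III, held 823 reads against 50.7 for UQCRC1-001. CALM2-002, of 1 of the calmodulin genes, held 5276 against 171. PDIA3-004, of an endoplasmic reticulum disulfide isomerase, had a cassette exon of 175 bases and a coding sequence of 213 bases, and held 6992 reads against 498 for PDIA3-001. PODXL-003, of the cell surface sialomucin podocalyxin, held 3150 against 56.3. CTBS-003, NACA-013, SOD2-012, HINT1-007 and FUNDC2-006 had ratios of 30.4, 30.1, 26.7, 20.3 and 20.0. In all 9 pairs the NMD transcript was above its partner in counts as well. For UQCRC1, CALM2, PDIA3 and CTBS, rows of other non-coding types were also above the partner in counts. Retained-intron rows UQCRC1-002, PDIA3-007 and CALM2-003 held 944, 922 and 309 reads, and the processed transcript CTBS-002 held 978. UQCRC1-002 and CTBS-002 were above the NMD transcript too. In the remaining genes of these pairs no row of another non-coding type was above the partner in counts. The processed transcript FUNDC2-004 came close, at 116 reads against 119 for FUNDC2-001. Per kb it was above that partner, at 175 against 18.5, and so was the processed transcript NACA-016, at 39.8 against 7.64 for NACA-201.

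For CALM2 the canonical transcript of release 44 had no row in the table, although the gene is abundantly expressed in most cells. Over all pairs where this could be looked up, the canonical transcript had a row in 2496 of 2834 (88.1%). Where it had none, the median log2 ratio was -0.99 and 30.8% of 338 NMD transcripts lay above the partner, beside -1.94 and 21.2% where it had one. The median count of the NMD transcripts themselves was 28.1 where it had none and 37.0 where it had one. Partner levels were not matched between these groups. Whether the reads of such genes were assigned to the NMD row in place of an unlisted coding transcript was not tested.

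The NMD transcript with the most reads of all was VIM-002, of the intermediate filament protein vimentin, at 12867 reads against 7072 for VIM-001, the gene's only coding row. Per kb the levels were 5663 and 3786, a ratio of 1.50. The stop of VIM-002 lay in an intron that the partner splices out, 467 bases before the 1 junction that follows it, and its coding sequence had 1293 bases against 1398 in the partner. A further NMD row, VIM-003, held 1707 reads, so that 67.3% of the NMD and coding reads of the gene were in NMD rows. The canonical VIM transcript had no row either.

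**Figure D3:**
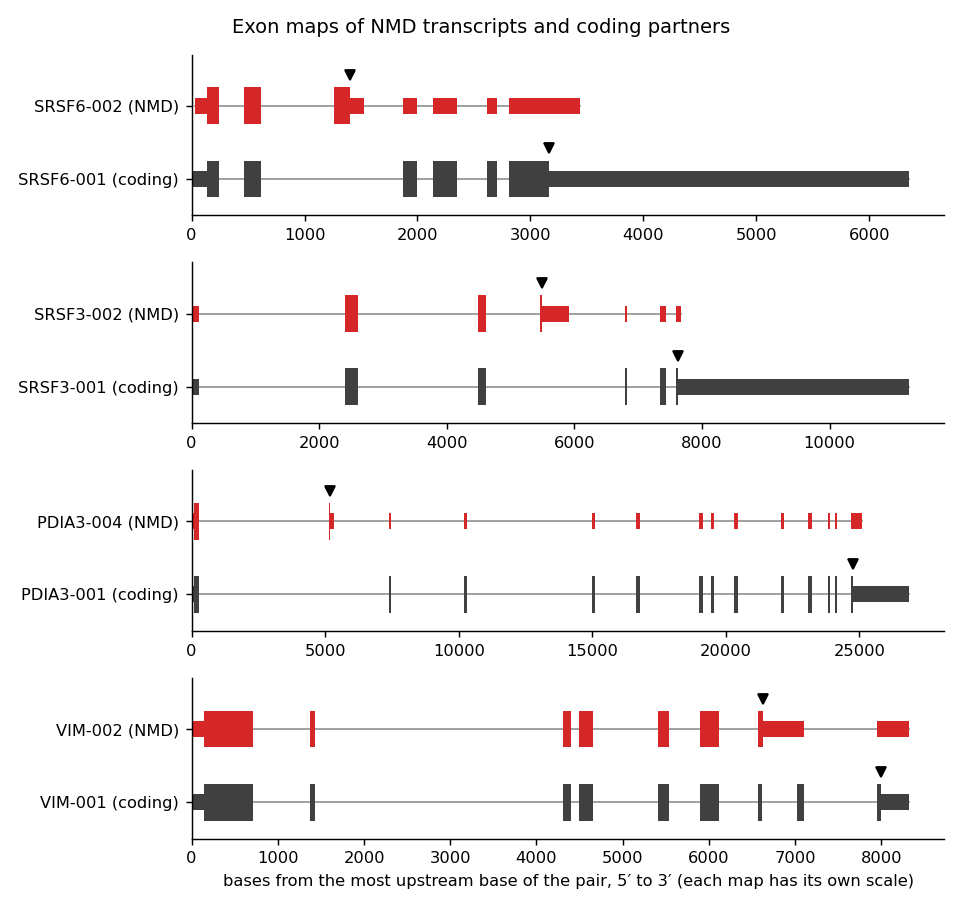
Exon maps of 4 NMD transcripts (red) and their coding partners (grey) from GENCODE release 44, in bases from the most upstream base of the pair, with tall boxes for coding and low boxes for untranslated parts and a triangle at the stop codon. The stops of SRSF6-002, SRSF3-002 and PDIA3-004 lie in exons the partners skip (268, 456 and 175 bases), and that of VIM-002 in an intron the partner removes.

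At the other end, the lowest ratios with both rows at 50 or more belonged to very abundant coding transcripts. HSP90AA1-003, of an inducible HSP90 chaperone, held 241 reads beside 41615 for HSP90AA1-002, the highest count of any partner. CCT2-004, of a chaperonin subunit, held 54.7 beside 3776, and CLIC4-002 held 55.9 beside 4873. With RPL35-003 and HNRNPA1-006 these 5 had ratios from 0.00876 to 0.0187 per kb.

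The genes with the most NMD rows had partners of very different levels. TMEM126B, of an assembly factor of respiratory complex I, had 5 NMD rows between 7.78 and 105 reads beside 66.6 for TMEM126B-004, and NMD rows held 71.6% of its NMD and coding reads. COA1, of an assembly factor of respiratory complex IV, also had 5, led by COA1-001 at 409 reads beside 110 for COA1-003. Of these 5, COA1-011 and COA1-018 are typed as protein-coding in release 44, and COA1-010 as protein-coding with no coding sequence defined. Only COA1-001 and COA1-007 kept the NMD type, and both end on the stop codon of the partner. EIF3M, FANCA, MPHOSPH9, SMIM7, SRSF7 and UPP1 had 4 each, and their partners ranged from 65.7 reads for SMIM7-001 to 1513 for EIF3M-002.

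The exon structure of 2713 pairs could be read from release 44. In 2775 of the 2837 NMD transcripts that release kept the NMD type, and 22 had become protein-coding. The stop codon lay a median of 441 bases before the last exon junction, with a range of 50 to 9568. This follows from the annotation rule, which asks for about 50 bases, and is no finding. A median of 3 junctions followed the stop, and in 606 transcripts (22.3%) only 1 did. The coding sequence was short, with a median of 330 bases against 1407, or 30.1% of that of the partner, and 65.4% began at the same start codon. In 650 NMD transcripts (24.0%) the annotated coding sequence had no start, so that their length is a minimum.

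The place of the stop codon differed between pairs. It most often lay in sequence that is coding in the partner too, in 1251 transcripts (46.1%). Of these 638 skipped 1 or more whole exons of the partner, and the bases skipped, a median of 133, were a multiple of 3 in 20 cases (3.13%). This share follows from the class and is no finding, since a stop in coding sequence that the partner reads through mostly requires another reading frame. In 585 (21.6%) the stop lay in a cassette exon, with a median length of 119 bases, and 31.8% of these exons were a multiple of 3 long. It lay in an extended exon in 363, in a retained intron in 47, and in 192 (7.08%) it was the stop of the partner.

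The level relative to the partner is given by this place as well. The median ratio per kb was 0.310 for stops in coding sequence of the partner, 0.240 for cassette exons, 0.283 for extended exons, 0.256 for transcripts with the same stop and 0.345 for retained introns. The 95% intervals of the last 4 overlapped one another, and that for coding sequence, -1.89 to -1.49 on the log2 scale, just met that for cassette exons, -2.34 to -1.88. No test was made, since the pairs are not replicates.

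**Figure D4:**
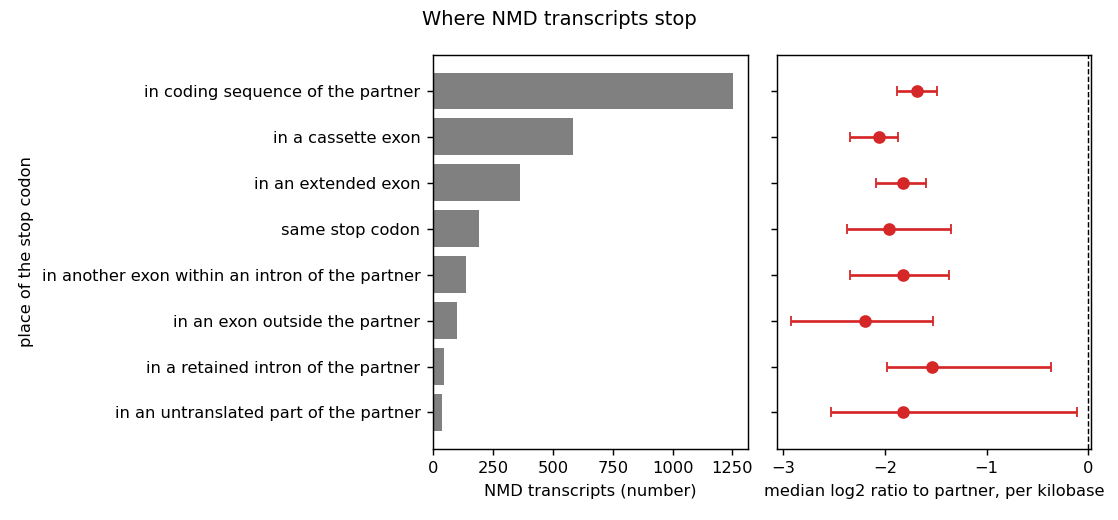
Number of NMD transcripts by place of the stop codon relative to the coding partner (left, bars from 0) and median log2 ratio to the partner per kilobase with its 95% interval over pairs (right). The bars run from 1251 transcripts with the stop in coding sequence of the partner to 36 with the stop in an untranslated part, and all medians lie below 0.

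Retained-intron and processed transcripts were also mostly below the coding partner. The table also held 6577 retained-intron transcripts and 3513 processed transcripts that could be paired in the same way. Their median log2 ratios per kb were -2.14 and -2.04, beside -1.84 for NMD transcripts, with 95% intervals of -2.21 to -2.08 and -2.13 to -1.96 that did not overlap that of NMD transcripts, -1.95 to -1.74. Of the retained-intron transcripts 17.0% lay above the partner and of the processed transcripts 18.9%, beside 22.3% of NMD transcripts. For partners under 100 reads the median log2 ratio of NMD transcripts was -0.01, for partners from 100 to under 1000 it was -2.21, and for partners at 1000 or more it was -3.40. This fall is no finding, since the bands are cut on the partner count, which is also the denominator of the ratio, and the floor on listed counts limits how low a ratio can be in the lower bands.

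The bands serve only to set the types side by side at like partner levels. For partners under 100 the medians were -0.01 for NMD, -0.16 for retained-intron and 0.11 for processed transcripts. For partners from 100 to under 1000 they were -2.21, -2.37 and -2.05. The processed median was thus above the NMD median in both of these bands. The NMD intervals overlapped those of both other types there. For partners at 1000 or more, where the floor limits least, the medians were -3.40 for NMD, -3.66 for retained-intron and -3.50 for processed transcripts, with overlapping 95% intervals of -3.70 to -3.19, -3.83 to -3.50 and -3.66 to -3.30. In this band 37 NMD transcripts (7.03%) lay above the partner, beside 3.10% of retained-intron and 5.50% of processed transcripts. The exact binomial interval of the NMD share, 5.0 to 9.57%, did not overlap that of the retained-intron share, 2.32 to 4.06%, but overlapped that of the processed share, 4.14 to 7.15%. Beside abundant coding partners the median of the NMD transcripts was thus not below those of the other types, and these values could not be tested against replicates.

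**Figure D5:**
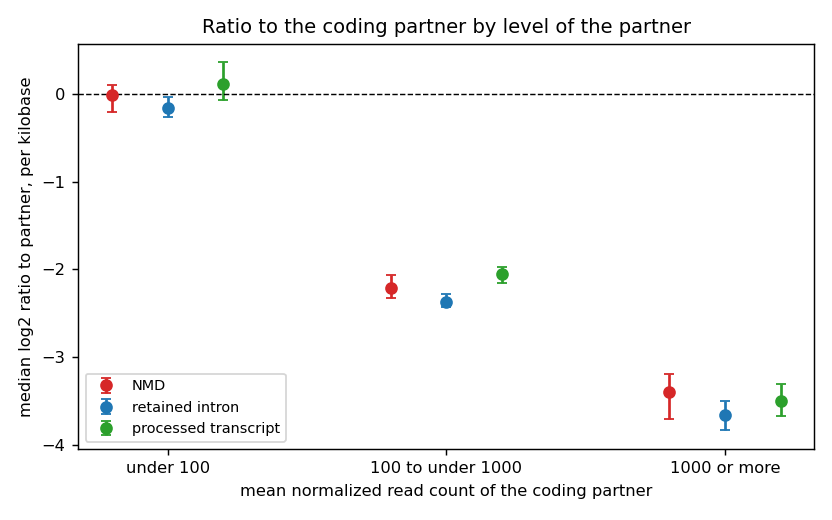
Median log2 ratio to the coding partner per kilobase (vertical axis) for NMD, retained-intron and processed transcripts, by the mean normalized read count of the partner (horizontal axis), with bars for the 95% interval over pairs. The NMD medians fall from -0.01 to -2.21 and -3.40 with rising partner level, and those of the other types fall alongside them.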

How the data were processed

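Libraries of MDA-MB-231 cells (2 per condition) were grouped by the sample labels. According to the methods, the authors mapped reads with STAR to GENCODE release 24, estimated transcript reads with eXpress and compared groups with DESeq2. Tool versions are not given in the sources used here. The deposited value, a mean normalized read count, is a signal that the authors averaged over libraries not specified. The 3 remaining value columns hold the authors' own comparison (log2 fold change, p-value, q-value) and were not read, so no effect of KH-3 is given.

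Counts were divided by listed length. Exon structure, stop codons and sequences came from GENCODE release 44 (hg38), matched by transcript ID without version; 95.0% of NMD and 29.7% of partner transcripts had the listed length. Intervals are exact binomial (Clopper-Pearson) for percentages and order-statistic for medians, at 95%, over pairs. A cassette exon is an exon with the stop that lies within an intron of the partner and whose neighbouring exons the partner shares. The code was checked on simulated data. The code ran in Python 3.11.15 with pandas 2.3.3 and numpy 2.4.6, intervals came from scipy 1.17.1, and figures were drawn with matplotlib 3.10.9.

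Named are the 10 highest and 5 lowest ratios with both rows at 50 or more, the 10 highest levels per kb, up to 4 rows per gene list, all SR protein and NMD factor rows, and the genes with most NMD rows. Printed sequences are the 30 coding bases ending in the stop, for up to 12 SR protein, NMD factor and HNRNP rows whose stop the partner does not use. SRSF1-001, SRSF3-007 and VIM-003 were named after their values were seen, and the genes with 4 NMD rows share the last place under the rule. Some items under this rule are not reported here. Members and lists were chosen with earlier results of these data known.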

Additional observations from a re-analysis of the deposited data

How the results depend on the processing

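The share of NMD transcripts above the partner per kb (22.3%) and the median log2 ratio (-1.84) stayed below equality under every alternative run. Without division by length they were 16.2% and -2.63, and against the longest coding transcript 33.6% and -1.15. Against the sum of all coding rows they were 16.4% and -2.32. With both rows at 50 or more they were 33.8% and -0.73, with the partner at 1000 or more 7.03% and -3.40, and with only the top NMD row of each gene 24.6% and -1.67. The median NMD share of reads per gene (13.8%) was 7.36% for genes with at least 500 reads, 20.1% per kb and 11.6% with all transcript types in the denominator. The share of stops over 50 bases before the last junction (99.8%) was 98.6% at 55 bases, and the share with the stop of the partner (7.08%) was 6.13% where both transcripts had the listed length. Each of these 17 values left the 95% interval of the value reported, and the other 14 of 31 did not. Among the latter are canonical partners only and complete coding starts only, both chosen after seeing the data. No paired analysis was possible because the table used here has no columns per library, and for the same reason leaving out a replicate and other normalizations could not be run. Depth is unknown, 58.4% of NMD transcripts had under 50 reads, and values at that level depend most on how shared reads were divided.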
